A study of Mus musculus with 6 samples.

Results

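The 10 genes described here encode proteins of heart muscle: the myosin heavy chains Myh6 and Myh7, the myosin light chains Myl7 and Myl4, the actin Actc1, the troponins Tnnt2 and Tnni3, the calcium release channel Ryr2, the calcium pump regulator Sln and the hormone Nppa. They were taken by name, through the RefSeq transcript that each array probe carries, and all 10 were among the 16422 genes that entered the tests. The levels came from CD45-negative lung cells, that is, cells left after leukocytes carrying the CD45 antigen were separated magnetically. Lungs were from WT mice (strain C57BL/6J) and from Ccr2KO mice (strain B6.129S4-Ccr2tm1Ifc/J), which lack the chemokine receptor gene Ccr2. Mice were 7 to 9 weeks old when the experiments began and were either untreated (day 0) or had aspirated silica, a crystalline dust that injures and scars the lung, 28 or 40 days before. Each of the 6 groups was 1 array of RNA pooled from 3 biological replicates. There was therefore no replicate of any group, and the p-values below rest on the scatter of single arrays about a fit of day plus genotype. In bulk RNA of this kind, fewer cells of a type and less RNA per cell cannot be told apart.

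In the mouse, a sleeve of heart muscle runs from the left atrium along the pulmonary veins into the lung, and lung tissue can therefore hold transcripts of atrial muscle. In such cells myosin heavy chains pull on actin filaments, troponin makes this pulling depend on calcium, and Ryr2 releases that calcium from the sarcoplasmic reticulum, into which a pump that sarcolipin (Sln) inhibits returns it. Myl7, Myl4, Sln and Nppa are typical of the atrium, Myh7 of the fetal mouse ventricle and of slow skeletal fibres, and several of the others occur in all heart muscle.

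The array held 11 probes for the 10 genes, and 9 genes were well above background on all 6 arrays with the probe used. Sln was well above background on 5 of 6, all but Ccr2KO day 40. A second Myh6 probe was above background on 0 arrays, so the Myh6 values rest on 1 of 2 probes. Other genes that define heart muscle cells were weak. Pln, which inhibits the same calcium pump as Sln, Casq2, the calcium store protein of heart muscle, and the muscle creatine kinases Ckm and Ckmt2 were well above background on 0 of 6 arrays, as were the cardiac regulators Tbx20 and Hand2. The probe of Nkx2-5, the heart muscle transcription factor, reached it on 1 array, as did the better of 2 probes each of Trdn and of the atrial potassium channel gene Kcnj3. The data thus went against the label of a full pulmonary vein muscle profile, and the genes are called by their names or as the 10 cardiac muscle genes. Which cells held these transcripts was not tested. Ccr2, the targeted gene, read 0.09, 1.38 and −1.70 on the WT arrays and −5.07, −1.51 and −3.64 on the Ccr2KO arrays, lower in Ccr2KO on every day. Its probe was nonetheless well above background on all 6 arrays, and the Ccr2KO day 28 value lay above that of WT day 40. Where the probe lies relative to the deleted part is not stated in the labels.

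Stretches upstream of 5 of the 6 members that fell after silica are shown as a description. Of these stretches 4 hold the same short motif. Promoters came from RefSeq (build GRCm38.p6), which gave 11 starts for 9 of the 10 members, and Sln is named only. Each line gives the 250 bases before the start, 5′ to 3′ on the gene's strand, at the most upstream start where a gene has several. Capitals mark the MCAT motif (CATTCC, or GGAATG on the other strand), the CArG box bound by serum response factor and, in Tnnt2 alone, a GATA box (TTATCT on the other strand).
Myl7 (chr11:5898783-5899032, minus strand): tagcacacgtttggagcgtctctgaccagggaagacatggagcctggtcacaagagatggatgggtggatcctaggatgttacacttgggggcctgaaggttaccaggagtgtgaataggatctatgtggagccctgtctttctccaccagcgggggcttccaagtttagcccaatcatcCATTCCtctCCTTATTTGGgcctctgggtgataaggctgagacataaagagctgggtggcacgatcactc
Actc1 (chr2:114052876-114053125, minus strand): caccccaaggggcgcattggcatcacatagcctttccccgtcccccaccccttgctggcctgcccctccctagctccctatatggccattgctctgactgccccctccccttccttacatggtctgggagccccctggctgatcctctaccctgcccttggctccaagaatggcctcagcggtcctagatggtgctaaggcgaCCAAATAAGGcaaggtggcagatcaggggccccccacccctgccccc
Tnnt2 (chr1:135836084-135836333, plus strand): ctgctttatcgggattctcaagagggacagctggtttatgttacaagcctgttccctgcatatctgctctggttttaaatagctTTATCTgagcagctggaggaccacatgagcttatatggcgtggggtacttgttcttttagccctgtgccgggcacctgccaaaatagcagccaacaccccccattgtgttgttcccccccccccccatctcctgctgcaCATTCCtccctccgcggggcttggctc
Myh6 (chr14:54966608-54966857, minus strand): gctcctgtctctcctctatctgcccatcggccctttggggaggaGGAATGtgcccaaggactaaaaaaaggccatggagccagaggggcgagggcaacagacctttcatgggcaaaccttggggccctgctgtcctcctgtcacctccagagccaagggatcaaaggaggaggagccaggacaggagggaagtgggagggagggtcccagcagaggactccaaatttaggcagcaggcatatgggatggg
Myh7 (chr14:54994627-54994876, minus strand): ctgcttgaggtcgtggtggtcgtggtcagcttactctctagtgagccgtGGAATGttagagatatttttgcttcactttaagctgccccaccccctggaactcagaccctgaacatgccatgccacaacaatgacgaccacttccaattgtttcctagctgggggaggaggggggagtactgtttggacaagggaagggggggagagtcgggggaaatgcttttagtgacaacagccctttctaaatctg

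The MCAT motif, the site of TEAD factors in muscle genes, stood in 4 of 11 member promoters (Myl7, Tnnt2, Myh6 and Myh7), and 12.6% of all 32851 promoters of that length held it. It began 70 bases before the start in Myl7, 27 in Tnnt2, 206 in Myh6 and 201 in Myh7, on the other strand in Myh6 and Myh7. The windows of the downstream starts of Tnnt2 and Myh7 did not hold it. A CArG box stood in Actc1 (47 bases before the start) and Myl7 (61 bases), which is 2 of 11, and 1.47% of all promoters held one. A TATA box (TATAAA) was found in Nppa, 9 bases before its start, against 12.4% of all promoters. The GATA box (AGATAA) stood in 1 of 11 (9.99% of all), a TBX5 site (AGGTGT) in 2, Nppa and Tnni3 (11.8%), an NKX2-5 site (AAGTG) in 6 (40.7%), an E box (CANNTG), which can overlap the NKX2-5 site, in 9 (66.2%), and a MEF2 site in 0 (2.92%). Both strands were searched. The windows of Ryr2, Myl4, Nppa and Tnni3 held neither MCAT nor CArG letters. These are matches of letters only, and whether they bear on the levels was not tested.

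After silica 6 of the 10 genes fell: Myh7 (4.89-fold), Sln (4.50-fold), Actc1 (2.77-fold), Myh6 (2.55-fold), Myl7 (2.51-fold) and Tnnt2 (1.78-fold). None rose over the mean of both days. The remaining 4 did not pass the test, Tnni3 with −0.53, Nppa with −0.32, Myl4 with 0.02 and Ryr2 with 0.15 on the log2 scale. Among all 16422 genes 19.8% passed in either direction and 9.33% passed as lower (limma, Benjamini-Hochberg adjusted p below 0.05, mean of days 28 and 40 minus untreated). The median change of the 10 genes was −1.08 log2 units, and that of all genes was −0.01. In 6 of the 10 genes, the same 6, all 4 silica arrays lay below both untreated arrays, which held for 24.0% of all genes.

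**Figure D1:**
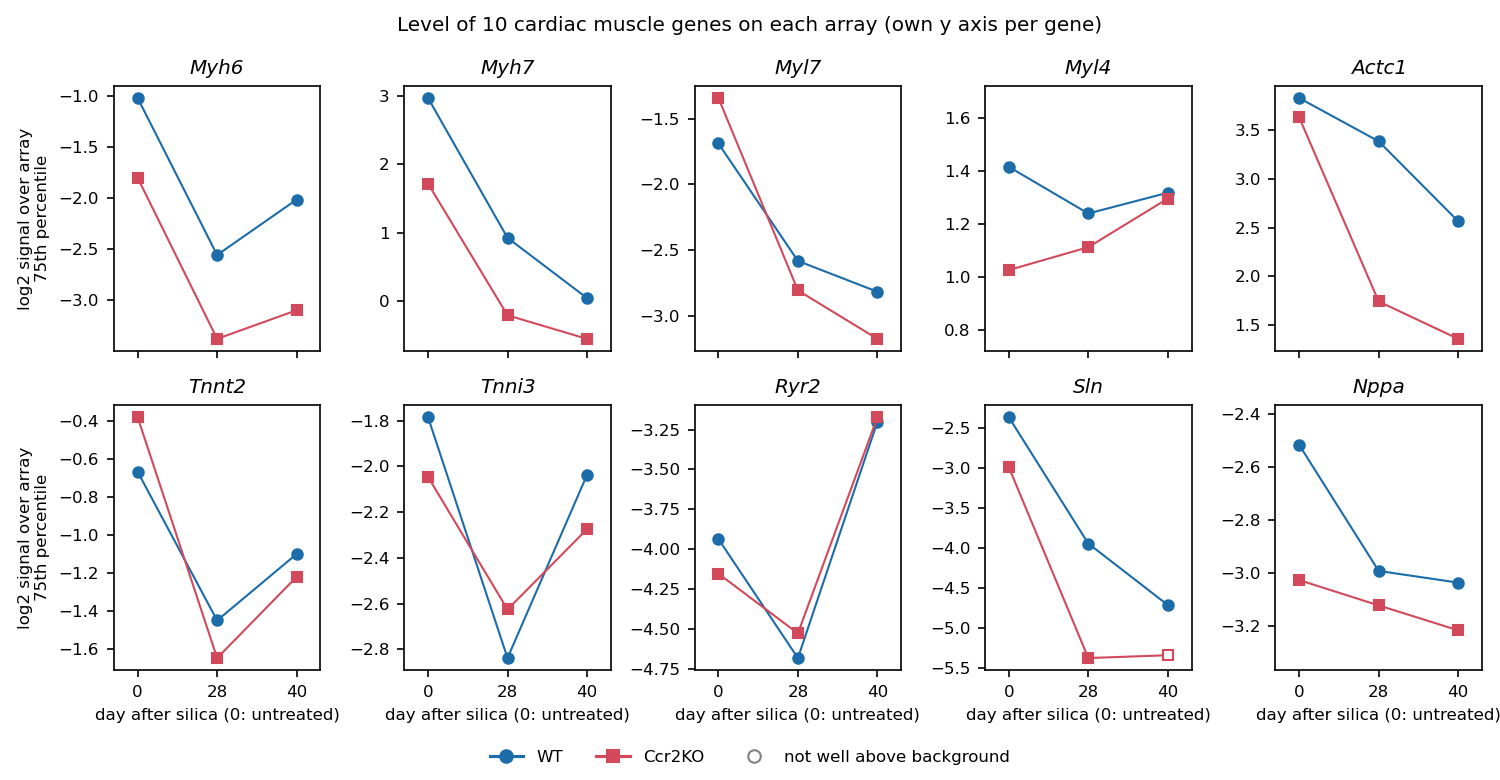
Level of each gene on each of the 6 arrays (y axis, log2 signal minus the array's 75th percentile, own scale per gene and at least 1 unit high) against the day after silica (x axis, equally spaced), with 1 point per array, circles for WT and squares for Ccr2KO; the open square of Sln was not well above background. Myh6, Myh7, Myl7, Actc1, Tnnt2 and Sln lie lower on both silica days in both genotypes, Myl4 stays between 1.03 and 1.42, and Ryr2 is lowest at day 28 and highest at day 40.

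Of the 10 genes, the one with the largest change encodes a part of the thick filament. Myh7, the slow or beta myosin heavy chain, read 2.97 untreated, 0.93 at day 28 and 0.05 at day 40 in WT cells, on the log2 scale after subtraction of each array's 75th percentile. In Ccr2KO cells Myh7 read 1.72, −0.21 and −0.55. All 4 silica arrays lay below both untreated arrays, and the WT array was the higher on every day. The fitted change was −2.29 ± 0.17 (log2 difference ± SE, limma adjusted p = 0.00855, 4 silica against 2 untreated arrays), with −1.98 at day 28 (adjusted p = 0.0137) and −2.60 at day 40 (adjusted p = 0.0122).

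Myh6 is the fast or alpha heavy chain of atrial and adult mouse heart. Its gene lies near Myh7, with no other RefSeq gene wholly between them, and genes that overlap either were not looked for. Myh6 read −1.02, −2.56 and −2.01 in WT cells (untreated, day 28, day 40). In Ccr2KO cells it read −1.80, −3.38 and −3.10. The lowest array of each genotype was that of day 28, and silica and untreated arrays did not overlap. The change was −1.35 ± 0.11 (adjusted p = 0.00909), and the day 40 minus day 28 difference, 0.41 ± 0.13, did not pass (adjusted p = 0.266). The heavy chain genes are alike in sequence, and whether a probe also binds a relative was not tested.

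Myl7, the atrial regulatory light chain, read −1.69, −2.58 and −2.81 on the WT arrays and −1.34, −2.80 and −3.17 on the Ccr2KO arrays. It was the only one of the 6 fallen genes besides Tnnt2 with a higher untreated level in Ccr2KO than in WT cells. Myl7 changed by −1.33 ± 0.18 (adjusted p = 0.0187), and it passed on both days. Myl4, the atrial essential light chain, which is also made in embryonic muscle, was flat beside it: 1.42, 1.24 and 1.32 on the WT arrays and 1.03, 1.11 and 1.30 on the Ccr2KO arrays. Its silica arrays lay between the untreated ones, and its change of 0.02 ± 0.12 did not pass (adjusted p = 0.915). The sign of that small value turns with normexp background correction (−0.01) and with the authors' deposited table (−0.16). Myl7 and Myl4, a pair of atrial light chain genes, thus read differently on the same 6 arrays, although the difference between the genes was not tested.

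Of the thin filament genes, Actc1, the cardiac actin, had the least even change. Actc1 read 3.83 untreated, 3.39 at day 28 and 2.57 at day 40 in WT cells, and 3.63, 1.74 and 1.36 in Ccr2KO cells. The untreated arrays lay close together, all 4 silica arrays were lower, and at day 28 the WT array was still near the untreated level while the Ccr2KO array was not. The change was −1.47 ± 0.33 (adjusted p = 0.0488), just inside the threshold. Neither day passed alone, with −1.17 at day 28 (adjusted p = 0.111) and −1.77 at day 40 (adjusted p = 0.052). The Actc1 call held in 6 of 15 alternative analyses. It was lost when probes were averaged (adjusted p = 0.0503) and without Ccr2KO untreated (−0.85, adjusted p = 0.0870), while without WT untreated the change was −2.08 (adjusted p = 0.0217). Actin genes too are near-identical relatives.

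Tnnt2, the cardiac troponin T that anchors the troponin complex to tropomyosin, read −0.67, −1.45 and −1.10 on the WT arrays and −0.38, −1.65 and −1.22 on the Ccr2KO arrays. Tnni3, the inhibitory cardiac troponin I, read −1.79, −2.84 and −2.04 on the WT arrays and −2.05, −2.63 and −2.27 on the Ccr2KO arrays. Both troponins were lowest at day 28 in each genotype and higher at day 40, but only the silica arrays of Tnnt2 all lay below the untreated ones, since the WT day 40 value of Tnni3 reached the Ccr2KO untreated level. Tnnt2 changed by −0.83 ± 0.14 over both days (adjusted p = 0.0288) and by −1.03 at day 28 (adjusted p = 0.0282). Tnni3 fell at day 28 (−0.82 ± 0.17, adjusted p = 0.0444) and did not pass at day 40 (−0.24, adjusted p = 0.367) or over both days (adjusted p = 0.0749). The day 28 call of Tnni3 held in 5 of 14 alternatives and in 0 of the 6 fits that left out 1 array. Their day 40 minus day 28 differences, 0.39 for Tnnt2 and 0.58 for Tnni3, did not pass either (adjusted p = 0.355 and 0.230).

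The pair of calcium genes both read lower than untreated at day 28 and went separate ways at day 40. The difference between these genes was not tested. Sln, whose small membrane protein slows the calcium pump of atrial and slow muscle, read −2.36, −3.94 and −4.71 on the WT arrays and −2.99, −5.38 and −5.34 on the Ccr2KO arrays, the last not well above background. All silica arrays were below both untreated arrays. Sln changed by −2.17 ± 0.22 (adjusted p = 0.0114), with 3 of 4 silica arrays well above background. Its size depended on the background correction, since with normexp it was −1.04 (adjusted p = 0.00445). In Ccr2KO cells at day 40 it was nominally at least 3.86-fold lower than untreated, counting that array at the lowest signal among its probes well above background.

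Ryr2, the calcium release channel of the sarcoplasmic reticulum, read −3.94, −4.68 and −3.20 on the WT arrays and −4.15, −4.53 and −3.17 on the Ccr2KO arrays. The day 28 arrays were the lowest, and both day 40 arrays were the highest and lay within 0.03 of each other. Ryr2 rose by 0.86 ± 0.14 at day 40 over untreated (1.81-fold, adjusted p = 0.0314) and by 1.42 ± 0.14 from day 28 to day 40 (2.68-fold, adjusted p = 0.0243). The day 40 call held in 6 of 14 alternatives and was lost in 5 of the 6 fits without 1 array, all but that without WT untreated, and the day 40 against day 28 call held in 8 of 14. At day 28 its change was −0.56 ± 0.14 and did not pass (adjusted p = 0.0660). With days 28 and 40 of opposite sign, the mean change over both days was 0.15 ± 0.12 (adjusted p = 0.418), and it was −0.03 in the authors' deposited table.

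Nppa, the gene of the atrial natriuretic peptide, was read by 10 spots of 1 probe. It averaged −2.52, −2.99 and −3.04 on the WT arrays and −3.03, −3.12 and −3.22 on the Ccr2KO arrays, with 1 spot left out as an outlier at WT day 28. The lowest WT untreated spot (−2.61) was above the highest spot of every other array (−2.63 at WT day 40), so within the slide only WT untreated cells stood apart, and Ccr2KO untreated spots ran from −3.25 to −2.84 among those of the silica arrays. Repeat spots show the error of the array and not that of the animals. The fitted change of Nppa, −0.32 ± 0.13, did not pass (adjusted p = 0.150).

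**Figure D2:**
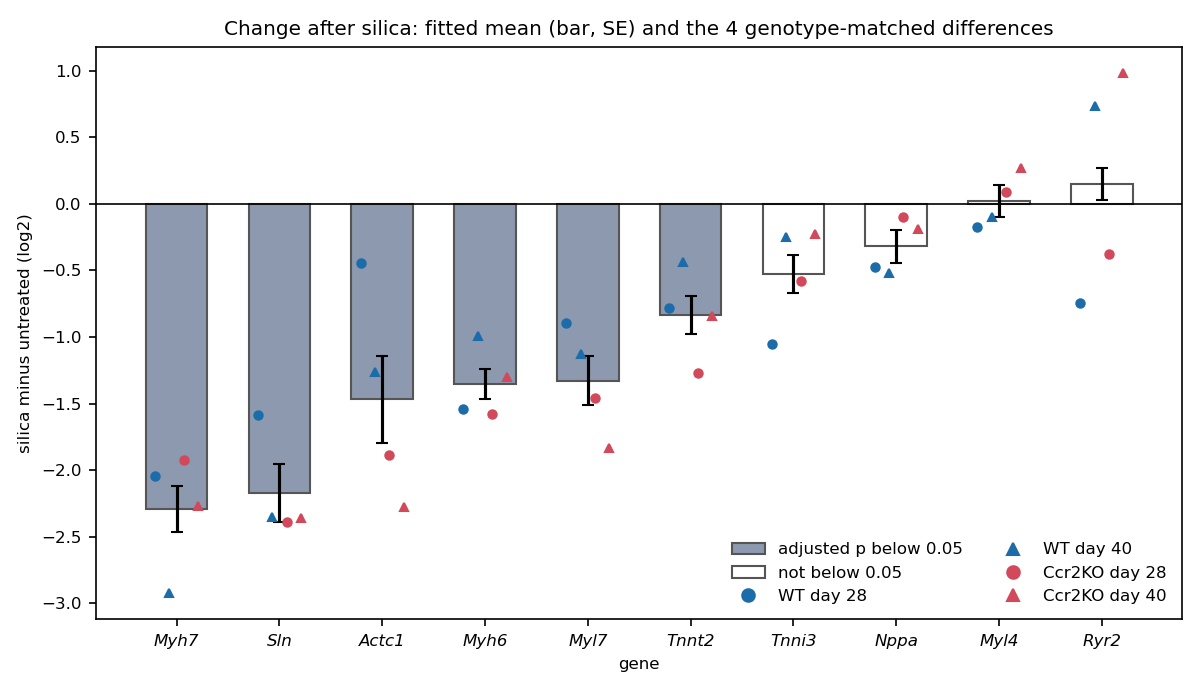
Change after silica of each gene (y axis, log2, silica minus untreated), with bars for the fitted mean of both days and genotypes, error bars for its SE, and points for each silica array minus the untreated array of its genotype, which both days of a genotype share. Filled bars mark the 6 genes that passed, from −2.29 for Myh7 to −0.83 for Tnnt2; the Ccr2KO day 40 point of Sln comes from a signal not well above background.

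By day, 6 of the 10 genes fell at day 28 (Myh6, Myh7, Myl7, Tnnt2, Tnni3 and Sln), where 17.2% of all genes passed. At day 40, 4 fell (Myh6, Myh7, Myl7 and Sln) and Ryr2 rose, where 15.2% of all genes passed. The member medians were −1.10 at day 28 and −0.89 at day 40, beside −0.05 and 0.02 for all genes, and both comparisons use the same untreated arrays. Day 40 against day 28 was called for Ryr2 alone, 1 of 10, where 2.73% of all genes passed. The other 9 split into 4 higher and 5 lower at day 40, without passing: the troponin genes, Myh6 and Myl4 read higher, and Myh7, Myl7, Actc1, Sln and Nppa lower.

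The silica calls depended on few arrays. By the position code in the names of the scanner output, both untreated arrays lay in row 1 of the slide with Ccr2KO day 28. The other 3 silica arrays lay in row 2. The labels do not give the row. Within row 1, 9 of 10 genes were lower in Ccr2KO day 28 than in Ccr2KO untreated cells, all but Myl4, with a median difference of −1.37, beside −0.07 for all genes. With the row as a block, the member median was −1.16 and 8 of 10 kept a negative value, but 0 of 16422 genes passed on the 1 residual degree of freedom (2471 at an unadjusted p below 0.05). Leaving out WT day 28 or Ccr2KO day 28 likewise left 0 genes called anywhere, with member medians of −1.114 and −0.998. Leaving out WT day 40 or Ccr2KO day 40 left 4 members, Myh6, Myh7, Myl7 and Sln, where 11.9% and 9.09% of all genes passed. Without Ccr2KO untreated, which leaves 1 untreated array, the member median was −0.75. The authors' deposited table, which has no scaling between arrays, moved the median of all genes to −0.19 and the split of calls to 1309 higher and 3628 lower, from 1725 and 1532; 9 of its 9 members were negative there and 6 passed, with Tnni3 (−0.71) among them and Sln not in the table.

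All 10 fitted Ccr2KO minus WT differences were negative, and 0 of 10 passed, as 0% of all 16422 genes did (limma, 1525 genes at an unadjusted p below 0.05, 4 of the 10 members among them). The 4 were Actc1 (−1.02 ± 0.31, adjusted p = 0.496), Myh7 (−0.99 ± 0.16, adjusted p = 0.381), Sln (−0.90 ± 0.20, adjusted p = 0.444) and Myh6 (−0.90 ± 0.11, adjusted p = 0.381). Each of these 4 was lower in Ccr2KO than in WT cells on all 3 days. Myh6 did so evenly, by −0.78 untreated, −0.82 at day 28 and −1.08 at day 40. Myh7 differed by −1.25, −1.13 and −0.60 on those days. Actc1 hardly differed untreated (−0.20) and read −1.64 at day 28 and −1.21 at day 40.

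Nppa (−0.27) and Myl4 (−0.18) also read lower in Ccr2KO cells on all 3 days, Myl4 by only −0.02 at day 40. The remaining 4 genes changed sign between days, and their mean differences were small: −0.10 for Tnni3, −0.08 for Myl7, and −0.01 each for Ryr2 and Tnnt2. Quantile normalization turned the sign of the Ryr2 and Tnnt2 differences (0.02 and 0.0002). The member median was −0.23, beside 0.03 for all genes.

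**Figure D3:**
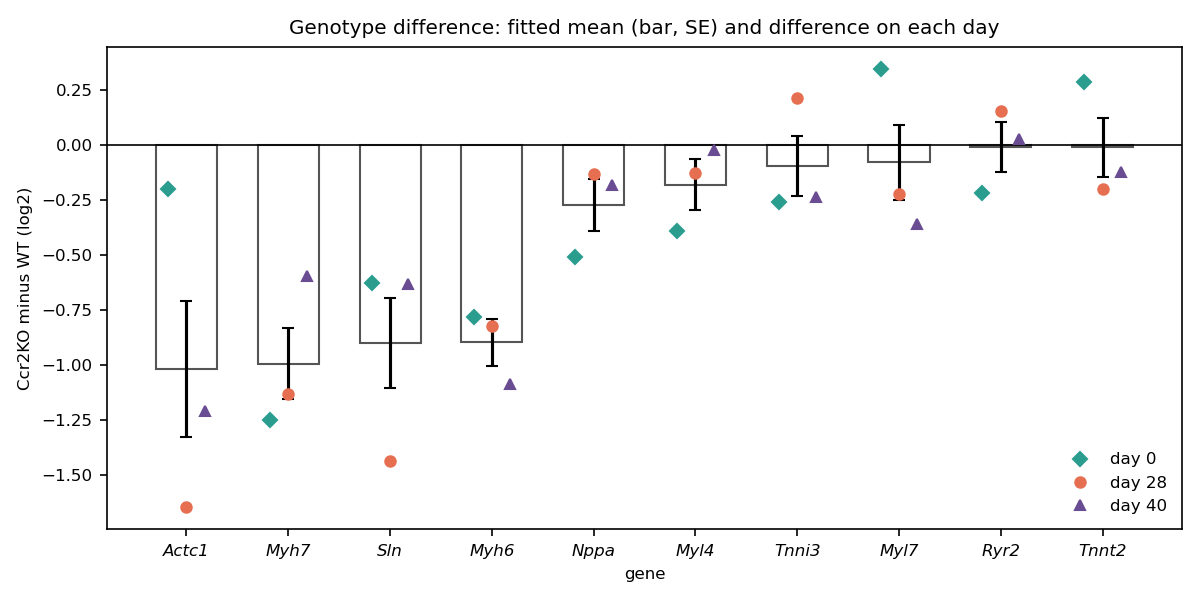
Ccr2KO minus WT difference of each gene (y axis, log2), with bars for the fitted mean over the 3 days, error bars for its SE and points for the single difference on each day (1 array per genotype). Actc1, Myh7, Sln and Myh6 lie below 0 on all 3 days, with fitted means from −1.02 to −0.90, and no bar passed the adjusted threshold.

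The silica responses of the genotypes were not found to differ for any of the 10 genes. In the fit of genotype by silica, 0% of 16422 genes passed (619 at an unadjusted p below 0.05, 0 members among them), and every member had an adjusted p of 0.9998 (limma). The largest member difference, Ccr2KO response minus WT response, was that of Actc1, −1.23 ± 0.60, with single differences from untreated of −1.89 and −2.27 in Ccr2KO beside −0.44 and −1.27 in WT cells at days 28 and 40. Ryr2 had the widest error (0.31 ± 1.27), and its days 28 and 40, which stand as replicates in that fit, went opposite ways.

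Across the 6 arrays the members ran together to different degrees. As a description over 6 arrays that share their scaling, Myh6 correlated at r = 0.959 with the mean of the other 9 genes, Sln at 0.955 and Myh7 at 0.918. Myl7 (0.849), Actc1 (0.841), Tnnt2 (0.833) and Nppa (0.825) came next, then Tnni3 (0.668). Myl4 (0.204) and Ryr2 (−0.148) stood outside. The genes most like the mean centred level of the 9 members above background on all arrays, among 3766 candidates, were Nol7 (r = 0.998), the myosin and Rab27a interacting gene Myrip (0.993), the brain proteoglycan gene Bcan (0.992) and the endothelial gene Tmem100 (0.990), followed by Hmbox1, Slc38a4, S100g, Rab27b, Adgrf5 and Impdh1 (0.990 to 0.989). None of these 10 is a sarcomere gene, all 10 had silica arrays below both untreated arrays, and 480 of the 3766 candidates had an r over 0.9, so a likeness of this order was common on these 6 arrays.

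Of 31 further sarcomere genes 24 entered the tests, 8 of them fell after silica and 2 rose, with a median of −0.24; that is 41.7% called, beside 19.8% of all genes. Of these calls 2 are of genes above background on the untreated arrays only, which entered the tests through those arrays. Those that fell were led by Myh7b, a slow myosin heavy chain (−1.94 ± 0.20, adjusted p = 0.0116), Tcap, the cap of titin at the Z disc (−1.55 ± 0.22), and Myom1, a protein of the M band (−1.05 ± 0.11). Myh7b read −0.92, −2.92 and −3.47 on the WT arrays and −2.11, −3.57 and −3.84 on the Ccr2KO arrays, with WT the higher on every day as in Myh7. Myoz1, a Z disc protein, is one of these, with signals not well above background on any silica array, nominally at least 1.24-fold lower. The slow skeletal troponin I gene Tnni1 rose by 3.11 ± 0.46 (adjusted p = 0.022), from untreated levels of −6.58 in WT, not well above background, and −4.84 in Ccr2KO cells to between −2.95 and −2.22. The ventricular light chain genes Myl2 (0.62, adjusted p = 0.0774) and Myl3 (−0.05, adjusted p = 0.861) and the cardiac troponin C gene Tnnc1 (−0.08 ± 0.20) did not pass. Of 6 ventricle genes 2 fell, Myh7 itself and the transcriptional repressor gene Hey2 (−1.24 ± 0.24, adjusted p = 0.0371).

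Genes of muscle energy supply had a median of −0.54, with 7 of 14 measured lower and 2 higher (64.3% called, beside 19.8% of all genes). Cox8b, a heart and skeletal muscle subunit of cytochrome oxidase, fell by 2.12 ± 0.36 (adjusted p = 0.0282), Cox6a2, another such subunit, by 0.93 ± 0.13, and Fabp3, the heart fatty acid binding protein, by 0.76 ± 0.14. Mb, the oxygen store myoglobin, was well above background only on the untreated arrays, through which it entered the tests, and was nominally at least 2.40-fold lower after silica. Fhl2, a LIM domain protein found in heart muscle, rose by 2.03 ± 0.14 (adjusted p = 0.00777), and Hspb7, a small heat shock protein, by 0.87 ± 0.16.

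Of 18 calcium and excitability genes 1 fell and 2 rose, with a median of −0.03, and the share called, 16.7%, was near the 19.8% of all genes. Bves, a membrane protein of heart muscle, fell by 1.54 ± 0.35 (adjusted p = 0.04997). Among those counted as risen was Casq1, the skeletal calsequestrin. It was well above background on the 2 WT silica arrays only and on 0 Ccr2KO arrays. It entered the tests through those 2 arrays, so it is given neither fold nor p. Of 14 hormones and regulators 2 fell, the cardiac and epithelial factors Gata4 (−0.68 ± 0.15) and Gata6 (−0.53 ± 0.10), and 3 were counted as risen (35.7% called in all), among them Prox1, a lymphatic and heart factor (1.42 ± 0.19), and Tbx18, a T-box factor (0.83 ± 0.09). The third, Rbm20, the splicing regulator of titin, was well above background on the 2 day 40 arrays only and entered the tests through them, so it is given neither fold nor p. The median of the list was 0.17.

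**Figure D4:**
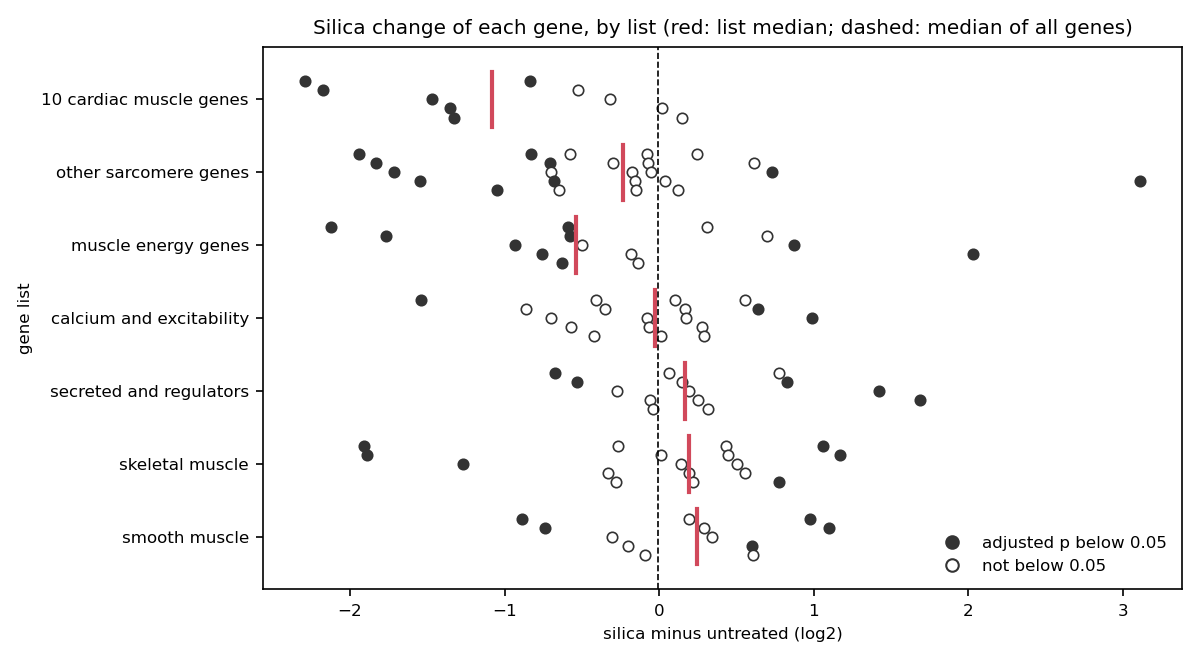
Silica change (x axis, log2, mean of days 28 and 40 minus untreated) of every measured gene of the 10 cardiac muscle genes and 6 further muscle lists (y axis; vertical spread within a list only separates points), with filled points for genes that passed. The red list medians run from −1.08 for the 10 cardiac muscle genes and −0.54 for muscle energy to 0.24 for smooth muscle, beside a dashed median of −0.01 for all genes.

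Skeletal and smooth muscle genes went both ways, with 35.3% and 41.7% of them called, beside 19.8% of all genes. Of 17 skeletal muscle genes 3 fell, the developmental myosins Myh8 (−1.91 ± 0.20) and Myh3 (−1.89 ± 0.18, nominal, since 1 of its 4 silica arrays was well above background) and the fast troponin T gene Tnnt3 (−1.27 ± 0.19), and 3 rose, the skeletal actin gene Acta1 (1.17 ± 0.18), Pvalb (1.06 ± 0.11) and Mybpc2 (0.77 ± 0.14). Of 12 smooth muscle genes Actg2 (1.101 ± 0.22), Acta2 (0.97 ± 0.18) and Tagln (0.60 ± 0.11) rose, and Synpo2 (−0.89 ± 0.15) and Myh11 (−0.74 ± 0.11) fell. Actc1 thus fell while the other muscle actin genes Acta1, Acta2 and Actg2 rose, although the differences between these genes were not tested.

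Markers of other cell types moved with the same arrays. Among all genes 9.33% fell and 19.8% were called in either direction. Of AT1 (flat alveolar) genes 5 of 6 fell after silica, among them Hopx (−2.14) and Akap5 (−2.02). Of platelet genes 7 of 7 fell, with Ppbp (−3.40) and Gp9 (−3.26). The platelet gene Gp6 was well above background on the untreated arrays only, through which it entered the tests. Of erythroid genes 4 of 5 fell, with Hbb-bt (−2.46) and Alas2 (−2.41), and of mesothelial genes 4 of 5, with Gpm6a (−1.45) and Upk3b (−1.36). The mean level of the mesothelial list was 2.0 and 1.9 on the untreated arrays and 0.81 to 1.02 on the silica arrays, of the AT1 list 4.78 and 5.19 against 3.47 to 3.83, of the platelet list −0.23 and −0.24 against −3.05 to −2.18, and of the erythroid list 1.34 and 1.46 against −1.75 to 0.77. The 10 pan-leukocyte genes were well above background on all 6 arrays despite the depletion. They averaged 1.72 and 2.61 untreated, 3.52 and 3.92 at day 28 and 1.22 and 1.68 at day 40. On the mean of both days 3 of them passed as higher. At day 28, 9 passed as higher, where 17.2% of all genes passed in either direction. At day 40 alone 0 passed as higher and 3 as lower, beside 15.2% of all genes. From day 28 to day 40, 9 passed as lower, where 2.73% of all genes passed. Of AT2 (surfactant-making alveolar) genes 5 of 8 fell, and of club and ciliated cell genes 1 of 5, a share called (20%) near that of all genes. Of endothelial genes 2 of 9 fell and 1 rose, and of fibroblast genes 2 of 8 fell and 3 rose. Of adipose genes 3 of 6 rose, among them Adipoq, well above background on silica arrays only, through which it entered the tests. The part of these other cells in the results for the 10 cardiac muscle genes was not tested.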

How the data were processed

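Per the file headers, one-colour Cy3 arrays (Agilent) were scanned, and the authors' deposited scanner intensity was extracted with Feature Extraction 11.0.1.1. Per the labels, RNA was pooled from 3 biological replicates per array. The authors' deposited values were log2 intensity of 30574 probes, 9 of the 11 member probes among them, without scaling between arrays; R 2.15.1 is named in the submitters' processing notes. The processed intensity was used here. Control spots were removed, outlier spots set to missing, spots of a probe averaged, and log2 intensity lowered by the array's 75th percentile (793 to 1179 signal units, 58.2 to 64.3% of probes well above background, 0 spots saturated). Depth does not apply to arrays, whose number limits the precision. Probes were named through RefSeq (GRCm38.p6), with 27509 of 55681 matching 1 symbol, kept if well above background on at least 2 arrays, and the brightest per gene was read.

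limma 3.58.1 (R 4.3.3, with the package data.table, version 1.17.8) fitted day and genotype, 2 residual degrees of freedom, and separately genotype by silica, with Benjamini-Hochberg adjustment and a threshold of 0.05. Named genes are all 10 members, of each further muscle list up to 6 passing genes with the largest silica change, of other lists up to 2, and the 10 genes most like the members (range at least 1 log2 unit); some genes that these rules name are not reported here. Members and lists were chosen with earlier results of these data known. An "at least" fold counts arrays not above background at the lowest signal among probes above it. For normexp (offset 50), median spot signals were used, since the files held no column of mean signals. The text compares gene levels only within a probe. Promoter windows were searched for fixed letters.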

Additional observations from a re-analysis of the deposited data

Results flagged for a closer look

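Myl4 moved down after silica in WT cells, by −0.18 at day 28 and −0.10 at day 40, and up in Ccr2KO cells, by 0.09 and 0.27, so that every silica array of one genotype lay on the other side of its untreated array from those of the other. The difference of the silica responses, Ccr2KO minus WT, was 0.31 ± 0.24 (limma adjusted p = 0.9998), and it rests on 1 untreated array per genotype.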

How the results depend on the processing

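With 1 array per group the limits are those of the model: the lone array left at a day is assumed to vary like the others, and signals near background bound a change only nominally. No paired analysis was possible because each group had 1 array and no replicate numbers pair arrays; the fit of day plus genotype itself compares arrays within a genotype. The counts of members that passed moved by more than 1.5 times under these settings. With the slide row as a block they were 0 after silica, at day 28, at day 40 and for day 40 against day 28. Without the filter on dim probes they were 3 at day 28, 3 at day 40 and 0 for day 40 against day 28, among 20862 genes tested. Of all those genes 6.82%, 5.92% and 1.12% passed in these comparisons. The authors' table gave 8 at day 40, where 41% of its 14931 genes passed, 5179 of 6117 as lower, around a median of −0.34 for all genes. Leaving out each array gave 0 to 6 after silica, at day 28 and at day 40, and 0 to 1 for day 40 against day 28. Without Ccr2KO untreated the day 28 count was 2 and the day 40 count 3, and without WT day 40 or Ccr2KO day 40 the day 40 count was 1 or 0. In the 15 alternatives of each member's silica change (13 for Sln), Myh6, Myh7, Myl7, Actc1, Tnnt2, Sln, Tnni3 and Nppa kept their sign, and 12 calls each held for Myh6, Myh7 and Myl7, 10 for Sln, 7 for Tnnt2 and 6 for Actc1; the cause of the losses was not tested. With normexp Sln changed by −1.04 and Myl7 by −0.87, both still called. The day 28 calls held in 11 of 14 alternatives for Myh6 and Myh7, 8 for Myl7, 8 of 12 for Sln, 7 of 14 for Tnnt2 and 5 for Tnni3, and the day 40 calls in 10 for Myh7, 8 for Myh6 and Myl7, 7 of 12 for Sln and 6 of 14 for Ryr2. Myl4 after silica turned to −0.0061 with normexp, −0.1616 in the authors' table, and ran from −0.1369 to 0.178 without single arrays. Ryr2 after silica turned to −0.0332 in the authors' table and ran from −0.0057 to 0.3037. The Ccr2KO minus WT difference turned for Tnnt2 to 0.0002 with quantile normalization and 0.0836 with the row block (−0.1594 to 0.0836 without single arrays), for Ryr2 to 0.0344 with normexp and 0.0212 with quantile normalization (−0.0941 to 0.0920 without single arrays), and for Myl7 it ran from −0.2909 to 0.0607 without single arrays. The genotype by silica fit without an untreated array of one genotype could not be made.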

Other observations

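Of 12 myosin heavy chain genes that entered the tests, a group put together after the values were seen, 8 fell after silica and 1 rose. Of all genes 9.33% fell and 19.8% were called in either direction. The group includes the members Myh6 and Myh7, whose fall is given above. The 8 were the cardiac and slow genes Myh7 (−2.29), Myh7b (−1.94) and Myh6 (−1.35), the developmental genes Myh8 (−1.91) and Myh3 (−1.89, with 1 of 4 silica arrays above background), the extraocular gene Myh13 (−1.19), the smooth muscle gene Myh11 (−0.74) and the non-muscle gene Myh14 (−1.21), as log2 changes with adjusted p from 0.00855 to 0.0213 (limma over all 16422 genes). The non-muscle gene Myh9 rose by 0.50 ± 0.10 (adjusted p = 0.0379). The fast skeletal genes Myh1 (0.01 ± 0.47) and Myh2 (0.45 ± 0.45) did not pass. Myh10 (−0.64 ± 0.16, limma adjusted p = 0.0582) did not pass either, although all its silica arrays lay below both untreated arrays.

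The genotype differences of the 12 genes ran from −1.36 for Myh1, which was above background on 3 of 6 arrays, to 0.60 for Myh3, and none passed. Myh6, Myh7, Myh7b and Myh8 read between −0.99 and −0.74 in Ccr2KO minus WT, lower in Ccr2KO cells on all 3 days. Myh2 read −0.17, and Myh9, Myh10, Myh11, Myh13 and Myh14 read between −0.11 and 0.11. Differences between these genes were not tested. Myh8, a perinatal skeletal myosin, read 0.24, −1.67 and −2.05 on the WT arrays and −0.93, −2.83 and −2.47 on the Ccr2KO arrays (untreated, day 28, day 40).

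Actn2, the Z disc actinin of heart and skeletal muscle, read −5.63, −4.44 and −6.24 on the WT arrays and −4.99, −3.72 and −5.86 on the Ccr2KO arrays, and Mybpc3, the cardiac myosin binding protein C, −3.07, −2.57 and −4.06 and −4.03, −3.41 and −4.76. Actn2 was well above background on both day 28 arrays and Ccr2KO untreated only, so its day 28 difference of 1.23 (adjusted p = 0.0154) is nominal and none is given for day 40. Mybpc3 read lower at day 40 (−0.86, adjusted p = 0.0247), with Ccr2KO day 40 not well above background, after a day 28 value of 0.56 that did not pass (adjusted p = 0.0522). The mean level of the 10 pan-leukocyte genes was also highest at day 28 and lowest at day 40 in each genotype. These values were picked after they were seen, and the part of leukocytes in them was not tested.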
